A study of Mus musculus with 28 samples.

Results

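Some Müller glial cells (MGCs) picked from the Rhod-ko retina carried many transcripts of rod photoreceptors, and these were set against MGCs of the same group that carried few. The Rhod-ko mouse lacks the rod-specific rhodopsin gene, a deletion shared by all 5 cells described here. All 5 were labelled as C57/BL6 and as 8 weeks old, an age chosen by the study because rods are being lost then. Each array measured the amplified cDNA of 1 cell, taken with a micropipette for its shape after papain had dissociated retinas of several litters. No label ties a cell to an animal, so differences between cells, animals and arrays cannot be told apart. The 5 cells are 5 of the 28 arrays of the series. The remaining arrays hold cells labelled as MGCs of adult WT (C57/BL6, labelled as over 25 weeks), Rhod-ko at 25 weeks, congenic FVB at P13, and rd1 (FVB, with a mutation in Pde6b) at P13 and at 5 weeks. For adult WT the paper states a lower minimum age than the label.

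Cells 7 and 8 form one side and cells 2, 1 and 3 the other, and lists of 5 values run in the order of cells 7, 8, 2, 1 and 3. Cells 7 and 8 were chosen by their own rod signals, and cell 7 also for signals of microglial genes. For each gene the highest probe set that names that gene alone was taken in each cell. A gene was called on at a signal of 2000 or more and off under 1000. By this rule 74 of 18194 genes, or 0.407%, were on in cells 7 and 8 and off in the other 3 cells. The opposite pattern was met by 33 genes, or 0.181%, and 203 genes, or 1.12%, were on in cell 7 and off in the other 4. The signals selected on here are the ones reported, so the values describe these 5 cells and no difference between the sides was tested.

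Rods detect light through rhodopsin, which activates the G protein transducin, and transducin in turn activates a phosphodiesterase that lowers cGMP and closes a cation channel of the outer segment. MGCs span the retina, enfold the rods, take up glutamate and recycle visual pigment, and react to injury by raising the intermediate filament Gfap. Microglia are the resident phagocytes of the retina, and they migrate towards dying photoreceptors.

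The rod list showed the contrast that gave the cells their description. Of 37 rod and photoreceptor markers measured, 14 were on in cell 7 and 18 in cell 8, against 4, 7 and 6 in cells 2, 1 and 3. The summed signal of the list was 387865 and 345598 on one side and 59889, 157768 and 67688 on the other. Transcripts of rods were thus not confined to cells 7 and 8. Only Gnb1, a G protein beta subunit used in many cell types, was on in every cell, and 16 markers were on in none. 20 markers were on in cell 7 or 8 and 12 in both, while 11 of the 20 were on in none of cells 2, 1 and 3.

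**Figure D1:**
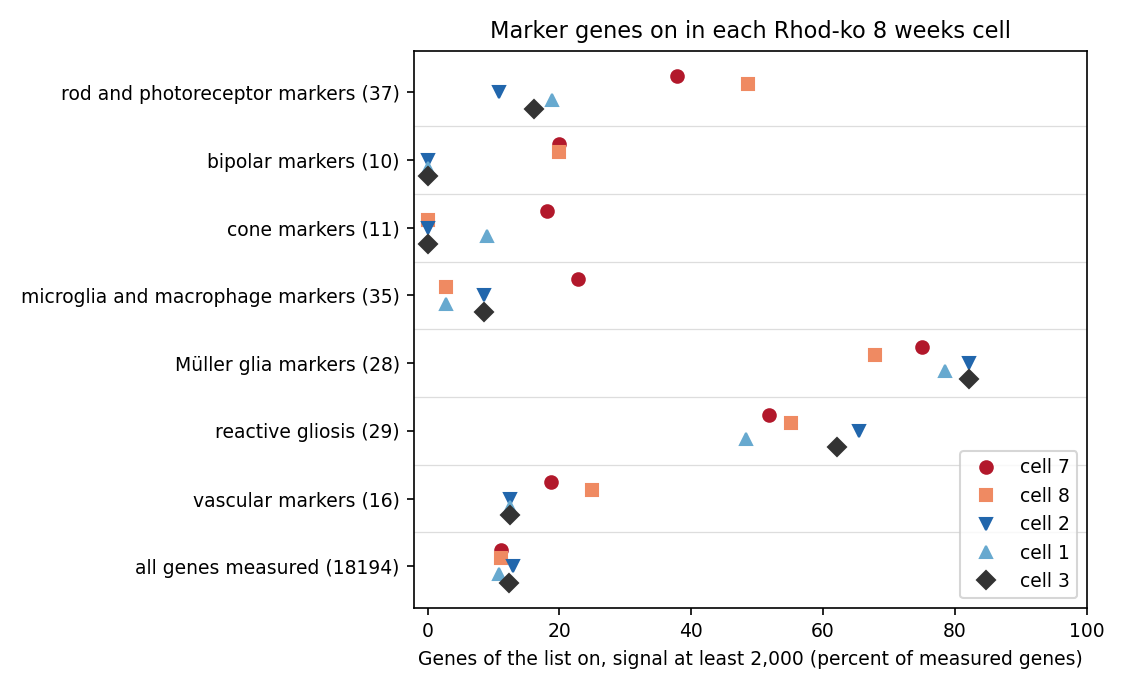
Share of each marker list that was on in each Rhod-ko 8 weeks cell, in percent of the measured genes given in brackets; each symbol is 1 cell. Cells 7 and 8 lie to the right of the other 3 cells for rod markers (14 and 18 of 37 on) and bipolar markers, cell 7 alone for microglial markers (8 of 35), and the 5 cells lie close together for all genes (1970 to 2363 on).

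The number of genes on did not set the sides apart, with 2038, 2033, 2363, 1970 and 2238 genes on. Other properties of the arrays did move with the side. The median gene signal was 390 and 376 in cells 7 and 8 and 202 to 271 in the others. The 100 highest probe sets held 32.0% and 35.7% of the summed signal, against 22.2% to 30.7%. The ratio of 3' to 5' signal of Gapdh, a sign of how far cDNA copies reach from the poly(A) end, was 18.2 and 13.8, against 3.95 to 7.49. The same ratio for Actb did not follow the sides, at 9.16 and 205 in cells 7 and 8 and 9.36, 0.528 and 85.4 in cells 2, 1 and 3. The part of these array properties in the gene differences was not tested. Signals in both cells 7 and 8 lay above all 3 others for 3994 genes (21.95%) and below them for 971 (5.34%), which is the background for the counts of non-overlapping genes below. Over whole profiles cells 7 and 8 were about as close to each other as to the rest. The Pearson correlation across all 45101 probe sets was 0.60 between them, 0.57 to 0.60 between the sides and 0.60 to 0.65 among cells 2, 1 and 3. It used log2 signals, with those under 100 raised to 100. Probe sets are not independent replicates, and these correlations are given as descriptions.

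4 rod markers met the full rule, which is 10.8% of the list beside 0.407% of all genes, a share that the choice of cells by rod signals fixes in part. Cnga1, the pore-forming subunit of the rod cGMP-gated channel, gave signals of 2915 in cell 7, 2405 in cell 8, 47.9 in cell 2, 14.7 in cell 1 and 50.9 in cell 3. Pdc, or phosducin, which binds the beta and gamma subunits of transducin, gave 2038, 2972, 12.3, 49.7 and 19.2. Both genes were modest in level in cells 7 and 8, and both were under 51 everywhere else in the group. Guca1a, the calcium sensor that regulates guanylate cyclase, gave 12101, 24668, 102, 494 and 247. Crx, the homeobox factor that drives photoreceptor genes, gave 6379.7, 4435, 628, 539 and 93.6. For Guca1a and Crx, as for the first pair, the sides did not overlap. Of the 2 Crx probe sets only 1 separated the sides. The other gave 57.5, 257, 64, 539 and 93.6, with cell 1 the highest.

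Pcare and Impdh1, which are not on the rod list, met the rule with similar gaps. Pcare is an actin regulator of the photoreceptor cilium, and gave 13168, 8605, 74.8, 207 and 142. Impdh1 makes guanine nucleotides and is abundant in photoreceptors, and gave 2923, 5128, 69.2, 85.6 and 25.1. The lower of cells 7 and 8 exceeded the highest of the other cells 41.5-fold for Pcare and 34.1-fold for Impdh1.

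The starts of 4 of these genes are shown because Crx, itself among the members, binds sites with the core TAATCC, and each stretch holds that core or its reverse complement GGATTA, in capitals. All are the strand of transcription from RefSeq promoters of GRCm38.p6 and lie within the 250 bases before the transcription start. The stretches are chr5:72642923-72643002 for Cnga1, chr17:47400621-47400700 for Guca1a, chr7:15879961-15880059 for Crx and chr17:71752906-71752985 for Pcare, all on the minus strand.
Cnga1: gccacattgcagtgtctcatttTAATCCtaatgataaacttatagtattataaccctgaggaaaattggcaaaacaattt
Guca1a: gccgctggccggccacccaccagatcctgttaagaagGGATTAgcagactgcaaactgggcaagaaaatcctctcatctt
Crx: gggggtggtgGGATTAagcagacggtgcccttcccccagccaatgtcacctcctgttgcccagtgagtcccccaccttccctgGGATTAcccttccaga
Pcare: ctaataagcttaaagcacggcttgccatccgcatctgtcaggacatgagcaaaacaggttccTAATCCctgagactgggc
The core lay 228 bases before the start in Cnga1, 57 in Guca1a, 94 and 21 in Crx, and 18 in Pcare. Counted on both strands over 250 bases, it was present in 6 of the 65 of the 74 genes that have a promoter in the table (9.23%), 12 of 29 rod markers (41.4%) and 1725 of all 27025 promoters (6.38%). Pdc and Impdh1 had no match in this window. A match to these letters is a description and not a binding site.

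Several strongly expressed rod genes were not clean separators, because some of cells 2, 1 and 3 also carried them. Gnat1, the alpha subunit of rod transducin, gave 57659 in cell 7, 54424 in cell 8, 523 in cell 2, 2750.4 in cell 1 and 537 in cell 3, so cell 1 exceeded 2000 while remaining far under cells 7 and 8. Rcvrn, or recoverin, a calcium sensor that restrains rhodopsin kinase, gave 92081, 45343, 13, 17.8 and 5349, with cell 3 on. Tulp1, needed for transport to the outer segment, gave 11545, 39581, 58.8, 2073 and 34.8. In each of these 3 genes cells 7 and 8 did not overlap the others.

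Rom1, a structural protein of the disc rim, gave 25862, 21994, 183, 617 and 12833, with cell 3 nearest to cells 7 and 8. Pde6g, the inhibitory subunit of the rod phosphodiesterase, gave 15789, 32589, 92.4, 11416 and 4857, with cells 1 and 3 on. Reep6, a membrane protein of rods, gave 39296, 12571, 4006, 9035 and 729. The gaps of Pde6g and Reep6 between cell 1 and the lower of cells 7 and 8 were small beside the differences within each side.

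Sag, the arrestin that shuts off rhodopsin and the marker proposed for these cells, did not separate the sides. Its signals were 54428 in cell 7, 33269 in cell 8, 5115 in cell 2, 61069.6 in cell 1 and 193 in cell 3. The highest value was that of cell 1, a cell on the other side, and cell 2 was on as well, so only cell 3 was off. Cell 1 nevertheless had 7 rod markers on to the 14 and 18 of cells 7 and 8, and its Rcvrn, Cnga1 and Pdc were each under 50.

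Cells 7 and 8 differed from each other in which rod genes they carried. Nrl, the leucine zipper factor that specifies rods, was 18685 in cell 7 and 1316 in cell 8, beside 27.6 to 255 in the others. 6 markers were on in cell 8 only. They were Guca1b, a second cyclase-activating protein, at 10625, the lipid transporter Abca4 at 9319.7, the rhodopsin kinase Grk1 at 4067, the channel beta subunit Cngb1 at 3348, the disc-forming protein Prom1 at 2800.2 and the phosphodiesterase chaperone Aipl1 at 2318. In cell 7 the signals of these 6 genes were between 129 and 1749.8. Grk1 was on in none of the 22 cells outside the group, where its highest signal was 257.

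**Figure D2:**
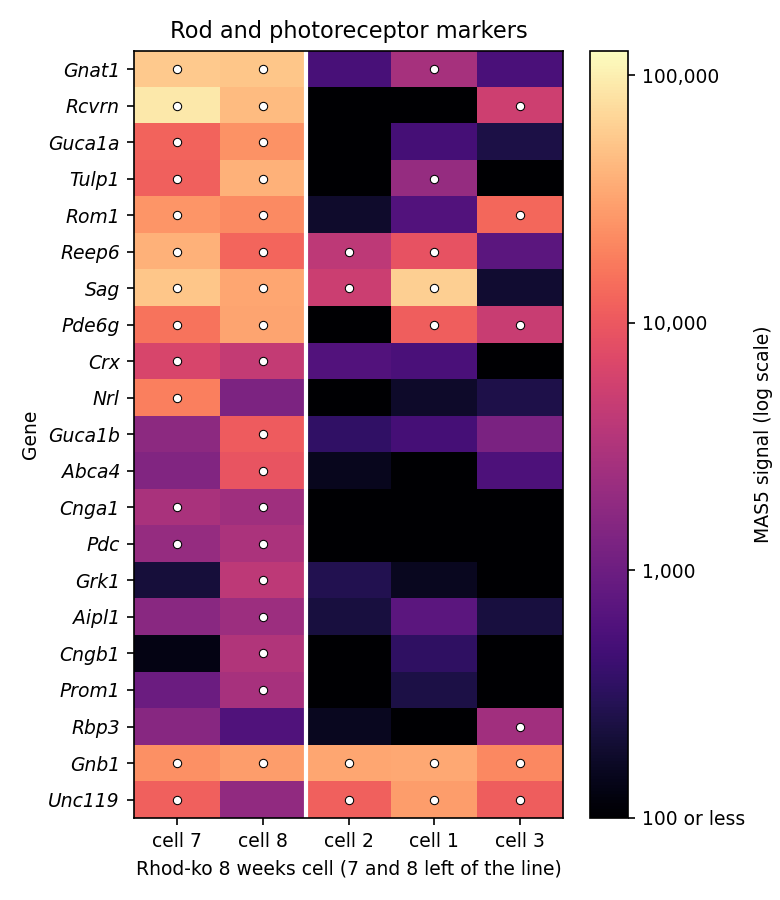
MAS5 signal of the 21 rod and photoreceptor markers on in at least 1 Rhod-ko 8 weeks cell, on a log colour scale with values of 100 or less drawn alike; rows are genes in order of the side difference, columns are cells, and a dot marks a signal of 2000 or more. Gnat1, Rcvrn and Guca1a lead with both cells 7 and 8 high, Sag is highest in cell 1, and Gnb1 is on in all 5 cells.

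Another count used the mean log2 signal of each side, after signals under 1000 had been raised to 1000, and it depends on that floor. Only a gene on in at least 1 of the 5 cells can reach 2-fold by this measure, and 4794 of all 18194 genes were. A share of all genes is therefore a low background for a list whose genes were mostly on. On this scale 15 of the 37 rod markers (40.5%) were at least 2-fold higher in cells 7 and 8, beside 689 of all genes (3.79%). Only Unc119, a carrier of lipid-modified proteins such as transducin, was at least 2-fold lower, beside 1012 of all genes (5.56%). After quantile normalization the balance over all genes turned, with 1041 higher and 933 lower. The Unc119 signals were 11617, 1911, 11465, 29058 and 11008, and the low mean came from cell 8. The median log2 difference was 0.17 over the list and 0 over all genes. Cells 7 and 8 both lay above all other cells for 18 rod markers (48.6%), beside 21.95% of all genes.

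Several other rod genes were not on in either cell. Gngt1, the transducin gamma subunit, was 69.2 and 66.7, the disc protein Prph2 92.8 and 130.3, and the catalytic phosphodiesterase subunits Pde6a and Pde6b reached at most 1091. Each of these 4 genes was also under 1000 in cells 2, 1 and 3.

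The remaining genes on in cells 7 and 8 were of mixed kinds. The lowest signal on the high side over the highest on the low side had a median of 8.72 over the 74 genes and ran from 2.21 to 73.5. The 12 with the largest gap were Cluh, Vldlr, Mrpl54, Gng13, Cnga1, Pcare, Pdc, Zfp263, Aplp1, Impdh1, Ints6 and Snhg7. Cluh, which binds mRNAs of mitochondrial proteins, led with 4162, 2574, 17.6, 25.3 and 35. Vldlr, a lipoprotein receptor, gave 18750.4, 21987, 189.8, 291 and 291, where 1 of its 6 probe sets gave both high values and 212, 13.7 and 232 in cells 1, 2 and 3. Mrpl54, a protein of the mitochondrial ribosome, gave 4946, 6401, 34.5, 81.9 and 35.1. In all 3 the highest cell of the low side was at most 291. Zfp263 is a zinc finger factor, Ints6 an Integrator subunit and Snhg7 a host gene of small nucleolar RNAs.

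2 markers of bipolar cells, the neurons that rods and cones signal to, were among the 74. Gng13, a G protein gamma subunit of ON bipolar cells, gave 45981 in cell 7, 62908 in cell 8, 714 in cell 2, 779 in cell 1 and 516 in cell 3, and its lower cell exceeded the lower cell of every other member. Pcp2, a modulator of G proteins in rod bipolar cells, gave 16369, 8507, 603, 892 and 397. None of the 10 bipolar markers was on in cells 2, 1 or 3, and the other 8 were on in none of the 5 cells. The summed bipolar signal was 66747 and 74388 against 3666 to 4586, and both sums were carried by Gng13 and Pcp2.

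Other neuronal genes among the 74 were chosen for mention after their values were seen, apart from Aplp1. Aplp1, a relative of the amyloid precursor protein, gave 45000.1, 23096, 478, 124 and 665, and both of its probe sets met the rule. Syt7, a calcium sensor of exocytosis, gave 11496, 16120, 256, 341 and 700.1, and Vamp1, a vesicle protein, gave 8864, 3196, 91.8, 275 and 263. Ache, which breaks down acetylcholine, gave 5238, 5395, 109, 299 and 303 and was the only one of the 74 that was on in no cell outside the group. Of 19 synapse and vesicle genes, 3 (15.8%, beside 3.79% of all genes) were at least 2-fold higher in cells 7 and 8 and none lower. These were Syp at 11586, 3939, 41.9, 237 and 1669, the glutamate transporter Slc17a7 at 5130, 1550.2, 54.4, 365 and 329 and Cplx3, a complexin of ribbon synapses, at 4299, 939, 18.8, 46.9 and 1086. Slc17a7 and Syp did not overlap between the sides and Cplx3 did, and 5 of the 19 genes (26.3%) had both cells above all others, near the 21.95% of all genes.

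Vtn and Cd59a, on other lists, also met the rule. Vtn, or vitronectin, an adhesive protein of matrix and plasma, gave 9206, 7760.2, 552, 138 and 886, and both of its probe sets met the rule. Cd59a, which blocks the membrane attack complex of complement, gave 3214, 4972, 337, 544 and 661. Neither of its 2 probe sets met the rule alone, since one supplied the high value of cell 7, with 835 in cell 8, and the other that of cell 8, with 1080.2 in cell 7. With C1qb, described below, 2 of 13 complement genes were among the 74, and 4, 3, 1, 1 and 2 complement genes were on in the 5 cells.

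**Figure D3:**
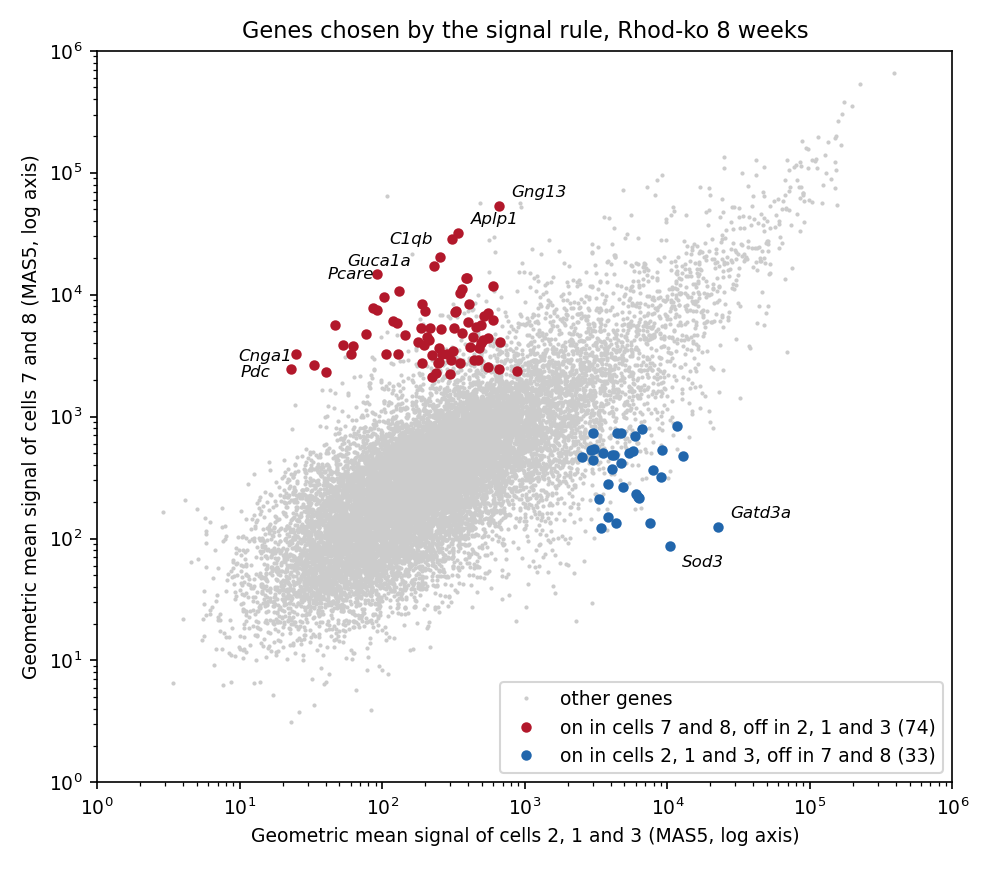
Geometric mean signal of cells 7 and 8 against that of cells 2, 1 and 3 for 18194 genes, both on log axes; red points are the 74 genes on in cells 7 and 8 only, blue points the 33 genes on in cells 2, 1 and 3 only, and grey points all others. Gng13 and Aplp1 have the highest means of cells 7 and 8 among the red genes and Gatd3a and Sod3 lie farthest to the lower right among the blue.

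In the reverse direction 33 genes were on in cells 2, 1 and 3 and off in cells 7 and 8, with gaps from 2.34 to 76.4 and a median of 5.87. Sod3, the extracellular superoxide dismutase, gave 104 in cell 7, 72.5 in cell 8, 10542 in cell 2, 7957 in cell 1 and 13363 in cell 3. Gatd3a gave 201, 77.6, 12895, 33079.8 and 26949.5, and Fnbp1l, which bends membranes in endocytosis, gave 136, 132, 16154, 6897 and 3948. For Sod3 and Gatd3a every cell of the low side was at most 201 and every cell of the high side at 7957 or more. The next 9 by gap were Trappc6a, Syde1, Me3, Wbp1l, Zdhhc12, Psma1, Pla2g5, Polr2i and Rfc2. Psma1, a proteasome subunit, gave 700.1, 68.7, 5859.8, 6574 and 6359.5, and Me3, the mitochondrial malic enzyme, gave 304, 233, 3265, 8979 and 3963. Slc38a3, a glutamine transporter of glia, gave 953, 557, 3868, 2233 and 3219 and had the smallest gap of the 33.

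No MGC marker was among the 74, the 33 or the 203 genes. Of 28 MGC markers, 21, 19, 23, 22 and 23 were on, and 17 were on in every cell. Clu, a secreted chaperone, was 567346, 756546, 287791, 549293 and 374970, and Rlbp1, which carries retinaldehyde in MGCs, was 93297, 86012, 108154, 176910 and 142449. Both cells 7 and 8 lay above all others for Clu, the only one of the 28 to do so, and below all others for Rlbp1. All 5 arrays thus carried MGC transcripts at high level.

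Within the list the levels leaned lower in cells 7 and 8. None of the 28 was at least 2-fold higher and 6 were at least 2-fold lower (21.4%, beside 5.56% of all genes), with a median log2 difference of -0.55. Only 3 of the 28 were on in no cell, against 13400 of all 18194 genes, so 5.56% is a low background for this list. Id3, an inhibitor of bHLH factors, had a log2 difference of -3.09, with signals of 4409, 1372, 13970.2, 23288 and 28366. Aqp4, the water channel of MGC endfeet, was 4108, 1236, 9104, 4866 and 8412, and Gpr37, an orphan receptor, was 4193, 1031, 5033, 11278 and 10695. The other 3 were Dkk3, Cd9 and Gnai2. Both cells 7 and 8 lay below all others for 13 markers (46.4%), beside 5.34% of all genes, which include those on in no cell. Among the 13 were Glul, which converts glutamate to glutamine, at 26049.7, 29028, 31288, 69192 and 60587 and the potassium channel Kcnj10 at 3284, 4275, 7577, 4408 and 6612. Sox2, a factor retained from progenitors, leaned the other way, at 7087, 4720.4, 1499.6, 4089 and 4760, with the value of cell 8 just under that of cell 3.

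Gfap, the usual sign of gliosis, did not follow the sides when the highest probe set of each cell was taken. Its signals were 66692 in cell 7, 79269 in cell 8, 83415 in cell 2, 69.1 in cell 1 and 20038 in cell 3. It was on in every cell but cell 1, and cell 2 was the highest. That rank depended on the probe set. The one that gave the values of cells 7, 8, 1 and 3 stood at 60426 in cell 2, below cells 7 and 8. The one that gave 83415 in cell 2 stood at 25767 and 29276 in cells 7 and 8. Of 29 genes of reactive gliosis, 15, 16, 19, 14 and 18 were on. Of the 29, 4 (13.8%) were at least 2-fold lower in cells 7 and 8 and 2 (6.90%) higher, beside 5.56% and 3.79% of all genes. With 6 of the 29 on in no cell, against 13400 of all 18194 genes, those shares are a low background. The 2 higher genes were Gfap, where cell 1 was low, and the metal-binding protein Mt1 at 435101, 659741, 141008, 320242 and 245928. Mt1 was above all other cells in both cells 7 and 8.

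Microglial transcripts set cell 7 apart from all others, cell 8 included. 8 of 35 markers were on in cell 7, against 1, 3, 1 and 3, and the summed signal of the list was 303716 against 21826, 27654, 13069 and 61416. Csf1r, the receptor that microglia need to survive, gave 118151 in cell 7, 362 in cell 8, 289 in cell 2, 184 in cell 1 and 706 in cell 3. It was the highest of the 203 genes private to cell 7, and each of its 3 probe sets met the rule. In cell 7 these probe sets gave 118151, 17935 and 2007.3, the last just above the limit. The highest Csf1r signal among the 22 other cells of the series was 1223. Tyrobp, the adaptor of microglial surface receptors, gave 35029.8, 289.5, 167, 111 and 22434, so cell 3 carried it too, while no cell outside the group exceeded 569.

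The C1q chains behaved unequally. C1qb gave 78045, 10288, 199.5, 577 and 249, with all 3 probe sets on in cells 7 and 8 and off elsewhere in the group, so it was one of the 74 and the only microglial marker on in cell 8. C1qa, private to cell 7, gave 10813, 225, 88, 77 and 28.2. C1qc, the third chain of the same complex, was under 100 in every cell, at 87.2, 32.7, 32, 74.6 and 56.8. Outside the group C1qb was on in 3 of 22 cells and C1qa in none.

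Fcer1g, an adaptor of immunoglobulin receptors, was also private to cell 7 at 21028, 845, 179, 399 and 633, and Lyz2, the lysozyme of macrophages, at 2724, 254, 258, 556 and 40.2. Lyz1, outside the list, was 8729 in cell 7, but Lyz1 and Lyz2 are close copies and their probe sets may not tell them apart. Ctss, a lysosomal protease, was 19431, 1369, 243, 406 and 103, missing the rule through cell 8. The last of the 8, Cyba, was 5435, 732, 15116, 261 and 26385, higher in cells 2 and 3 than in cell 7.

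Of the markers most used to define microglia, several were not on in cell 7. Its signals were 419 for Cx3cr1, 384 for P2ry12, 451 for Tmem119, 549 for Aif1, 193 for Ptprc, 429 for Itgam, 324 for Spi1 and 1056 for Trem2. None was at 0. Cell 7 had 21 of 28 MGC markers on, so the array held both kinds of transcript, and how they came together was not tested. Csf2ra, also on the microglial list, went the opposite way at 447, 519, 3188, 3678 and 5869, and was one of the 33.

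**Figure D4:**
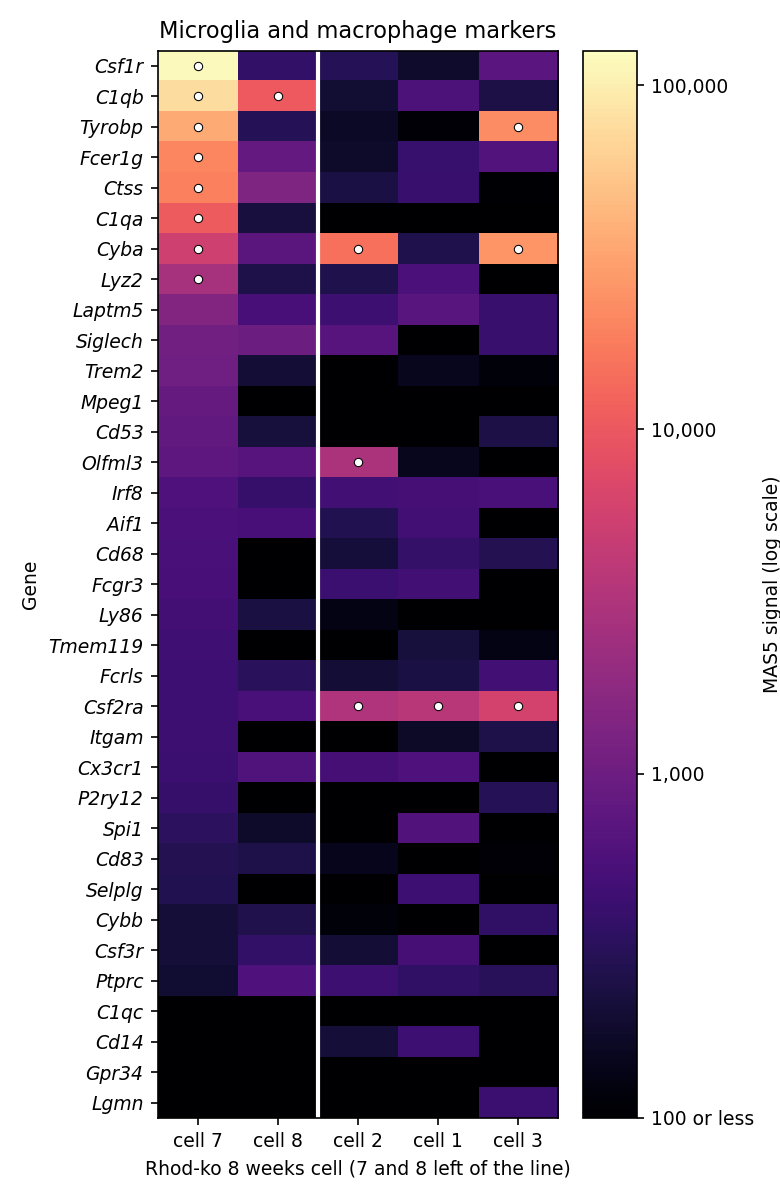
MAS5 signal of the 35 microglia and macrophage markers, on a log colour scale with values of 100 or less drawn alike; rows are genes in order of their signal in cell 7, columns are cells, and a dot marks a signal of 2000 or more. Cell 7 has 8 dots in the upper rows, led by Csf1r and C1qb, Tyrobp is also on in cell 3, and Cx3cr1, P2ry12 and Tmem119 have no dot.

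To be private was common and not particular to cell 7. The same rule gave 200 genes for cell 8, 254 for cell 2, 205 for cell 1 and 219 for cell 3, beside the 203 of cell 7. Of these, 39 in cell 7 were on in no cell outside the group, against 35, 37, 35 and 18. The highest private signal was 118151 for Csf1r in cell 7, 74743 for Ccn1 in cell 8, 37085 for Ppp2r2d in cell 2, 59643 for Ablim3 in cell 1 and 31088 for S100b in cell 3.

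After Csf1r, the genes of cell 7 with the largest gaps were Gemin2, Cep44, Pom121, Mrps24, Bnip3, Lsp1, C1qa, Tstd2, Anapc7, Taf1c and Timm9. Gemin2, of the complex that assembles splicing particles, gave 6271, 28.7, 44, 22.7 and 4.1, and Pom121, of the nuclear pore, gave 44733, 746, 289.9, 662 and 37.3. Lsp1, an actin-binding protein of leukocytes, gave 5763, 119, 50.9, 99.4 and 86.8. Hcls1 and Nckap1l, both of blood cell lineages and named after their values were seen, were 2349.9 and 3145 in cell 7 and at most 312 and 551 in the others. Lsp1, Hcls1 and Nckap1l were on in none of the 22 other cells, as were Csf1r, C1qa and Fcer1g.

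The list genes among the 203 also included markers of other neurons. Pde6h, a cone phosphodiesterase subunit, was 4500.2, 715, 131, 333 and 144, the glycine transporter Slc6a9 of amacrine cells 3965, 862, 736, 478 and 249 and the heavy neurofilament Nefh of ganglion cells 2295, 168, 215, 37.7 and 119.9. Lcn2, a secreted protein of reactive glia, was 3219, 50.1, 249.8, 311 and 17.3, and Dffa, an inhibitor of the nuclease that cuts DNA in apoptosis, was 3267, 809, 115, 214 and 95.1. Another cone gene, the G protein subunit Gnb3, was 5188, 703, 346, 5408 and 20.3 and so on in cells 7 and 1. In cell 8 the ganglion cell marker Sncg, a synuclein, stood at 6208 and Cldn5, of endothelial tight junctions, at 3095, both under 1000 in the other 4 cells. No list of cone, bipolar, amacrine, horizontal or ganglion cell markers had more than 2 genes on in cell 7 or 8. Drd4, a dopamine receptor of photoreceptors named after its value was seen, was 20508, 348, 787, 257 and 657.

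The thresholds cut through a continuous range. Among the 74, the genes nearest the limit were Paqr7 at 2012 and Pdc at 2038 in their lower cell, and just outside lay Smarcd1 at 1974 and Dgat2 at 1959.5. For the 33 the corresponding values were Tmem14a at 2074, B3galt1 at 2101, Tm2d2 at 1954 and Phax at 1914. For cell 7 they were Nrxn2 at 2005, Ddit4l at 2009, Cdkn1a at 1981 and Tpm4 at 1980.2. Of the 74 genes, 54 had more than 1 probe set, and in 30 of these a second probe set also placed both cells above all others, though in only 6 did it meet the thresholds. How often a second probe set does so over all genes was not counted. By their highest probe sets, 21.95% of all genes had both cells above all others. Probe sets of a gene share the cDNA of the cell and are no separate evidence.

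The other 22 cells played no part in the choice. The 74 genes were also on elsewhere, in a median of 6 of these 22 cells, where the 4794 genes on in at least 1 of the 5 cells had a median of 7. Per cell, 8 to 22 of the 74 were on in adult WT, 17 to 27 in Rhod-ko at 25 weeks, 12 to 37 in rd1 at 5 weeks, 19 to 30 in congenic FVB at P13 and 25 to 35 in rd1 at P13. The share of all genes on was lowest in adult WT (10.2% to 14.3%) and in part of rd1 at 5 weeks (10.2% to 17.6%), and 14.7% to 17.2% in the other conditions. Strain, age and genotype differ together between these conditions, and no test was applied, since no label names an animal.

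**Figure D5:**
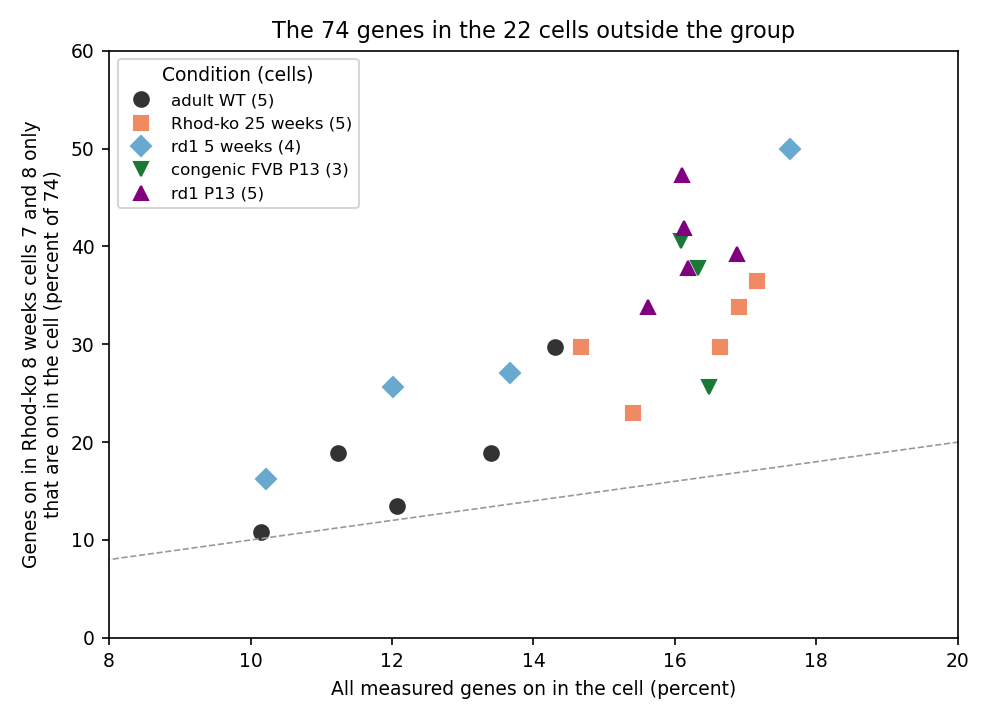
Percent of the 74 genes that were on in each of the 22 cells outside the group against the percent of all 18194 genes on in that cell; symbols give the condition and the dashed line marks equal shares. Every cell lies above the line, from 10.8% in an adult WT cell to 50.0% in an rd1 5 weeks cell, and cells with more genes on in all tend to have more of the 74 on. The 74 were chosen for being on in cells 7 and 8, while 13400 of all genes were on in none of the 5 cells. A place above the line therefore follows in part from the choice.

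Outside the group the rod members were found mostly at P13. Pdc was on in 7 of 8 cells at P13 and in none of 14 older cells, where its highest signal was 856. Crx was on in 7 of 8 cells at P13 and 2 of 14 older ones, Guca1a in 5 and 1, and Cnga1 in 3 and 1. In none of the 5 Rhod-ko cells at 25 weeks was any of these 4 genes on. Nrl was on in all 8 cells at P13 and no older one. Sag was on in all 8 and in 3 of 14, and Gnat1 in all 8 and in 1 of 14. Per cell, 11 to 26 rod markers were on in congenic FVB and 12 to 24 in rd1 at P13, against 2 to 6 in adult WT, 2 to 8 in Rhod-ko at 25 weeks and 1 to 9 in rd1 at 5 weeks. The 14 and 18 of cells 7 and 8 fell within the P13 ranges and above those of all older cells. MGC markers were fewer in part of the P13 cells, with 8 to 12 of 28 on per cell in congenic FVB and 11 to 25 in rd1. They numbered 19 to 27 in adult WT, 25 to 27 in Rhod-ko at 25 weeks and 24 to 26 in rd1 at 5 weeks.

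The leading rod genes were also at high level at P13. At P13 the Gnat1 signals ran from 8347 to 39498, with a median of 21527, and the 54424 and 57659 of cells 7 and 8 lay above them. Sag ran from 8578 to 32117 at P13, below cells 7, 8 and 1. Rcvrn reached 26163 at P13 and 55007 in an older cell, between the values of cells 8 and 7. Of the bipolar genes, Gng13 was on in 6 of 8 P13 and 4 of 14 older cells and Pcp2 in 6 and 5. Microglial markers numbered 0 to 3 on per cell in every other condition, below the 8 of cell 7.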

How the data were processed

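Single MGCs were lysed, and their RNA was reverse transcribed from an oligo dT primer, tailed and amplified by 35 cycles of PCR, then hybridised to Affymetrix mouse 430 2.0 arrays. The deposited values are signal intensities that the authors made with MAS 5.0, 1 per probe set and array. Every array had a 2% trimmed mean of 500, so they were already scaled, and they were used as deposited. No detection calls, build or depth were used, and the number of arrays limits the precision.

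Of 45101 probe sets, 34958 have 1 gene symbol in GEO's platform annotation, 932 have several and 9211 none. Those with 1 symbol give 18194 genes, 18033 of them matched to RefSeq by Entrez number. The highest probe set per gene and cell was taken, as in the study's methods. A pair of rd1 5 weeks arrays (r = 0.989, other pairs at most 0.764) was averaged, leaving 27 cells.

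Named are the 12 genes of largest gap in each set, every set member on a list, the marker genes on in cell 7 or 8 and in at most 1 other cell, Sag, Csf1r, Tyrobp and Gfap, and the 2 genes nearest each limit. Any other named gene was chosen after its values were seen. The members, cells and all 28 lists were chosen with earlier results of these data known. No p-value was computed, because each group counts as 1 sample. Alternatives were 1 probe set per gene, quantile normalization, a common 90th percentile, other thresholds and floors, and leaving out each cell. Python 3.11.15, pandas 2.3.3, NumPy 2.4.6 and SciPy 1.17.1 were used, and the counting code was tested on simulated data.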

Additional observations from a re-analysis of the deposited data

Results flagged for a closer look

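Over 37 measures in the 5 cells, the number on in each list and the log2 signals of Sag, Csf1r, Tyrobp and Gfap among them, 4 had 1 cell whose gap to its nearest neighbour took up most of the range of the group, above Dixon's 95% limit for 5 values. This served as a screen and not as a test, since cells 7 and 8 had been chosen by their signals, cell 7 for its microglial genes among them. For continuous, normal values chance passes this limit about 1 time in 20. Most of the 37 measures are counts of genes, many with ties, so the 4 cannot be set against that rate. Other genes were not screened. Cell 7 was the highest with 8 microglia and macrophage markers on, where the next cells had 3. Cell 7 was also the highest for Csf1r, with a log2 signal of 16.85. Cell 7 had 2 amacrine markers on and each other cell 1, so the gap was the whole range by construction. Cell 1 was the lowest for Gfap, with a log2 signal of 6.11.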

How the results depend on the processing

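The counts of genes chosen by the rule followed its thresholds. For the 74 genes on in cells 7 and 8, the 33 genes of the reverse pattern and the 203 private to cell 7, the counts were 329, 90 and 762 with on set at 1000, and 24, 6 and 53 with on set at 5000. They were 43, 9 and 73 with off under 500, and 133, 89 and 387 with off under 2000. The thresholds nest, so such moves follow from their construction. Quantile normalization gave 99, 50 and 294, of which 64, 33 and 181 were shared with the original lists, and 1 probe set per gene shared 63, 31 and 176. Leaving out 1 cell at a time gave 106 to 333, 88 to 126 and 256 to 333, as fewer cells then had to meet the rule. Without cell 7 the 74 became 319, without cell 8 they became 333, and without cell 2 or 3 115 or 128. The rod markers on in cell 8 numbered 11 with on set at 5000. The other rod counts per cell and the microglial count of cell 7 kept within 1.5 times, and no other list was recounted per cell.

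The 2-fold counts, whose alternatives were chosen after the data were seen, moved with the scale. The genes higher in cells 7 and 8 numbered 1041 after quantile normalization, 1300 with a floor of 500 and 354 with a floor of 2000, and 741 to 925 without 1 cell. The genes lower numbered 933 after quantile normalization, 1340 with a floor of 500, 588 with a floor of 2000 and 1145 to 1227 without 1 cell. Rod markers higher ran from 12 to 18 over all alternatives. Rod markers lower were 0 to 1 without 1 cell, 0 being without cell 8. MGC markers higher were 1 after quantile normalization and 0 to 2 without 1 cell, and MGC markers lower ran from 4 to 8. Of 150 gaps, for 50 named genes under 3 settings, none reversed and 43 moved, 32 of them under quantile normalization. Each of these genes had met the rule in the same cells, so its gap began above 2-fold. The lack of reversals therefore follows in part from the choice. With 1 array per cell, 2 cells against 3 and 35 cycles of PCR before the array, a gene missing from 1 cell cannot be told apart from a transcript lost in amplification.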

Other observations

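Genes outside the lists of cell types gave a few further contrasts in the 5 cells, named after their values were seen and in the order of cells 7, 8, 2, 1 and 3. Jund, a subunit of the AP-1 factor, had signals of 8125, 8703, 861, 1108 and 2162 and did not overlap between the sides. Atp6v0d1 and Atp6ap1, both of the proton pump that acidifies lysosomes, were lower in cells 7 and 8 without overlap, at 699.9, 1296, 4493, 7315 and 6397 and 2229, 5239, 22727, 15883 and 14763. Of 34 lysosomal genes 3 (8.82%) were at least 2-fold higher and 7 (20.6%) lower, beside 3.79% and 5.56% of all genes. With 8 of the 34 on in no cell, against 13400 of all 18194 genes, those shares are a low background here. Lrp1, a scavenger receptor, was 8711, 37831, 162, 329 and 16358, so that cell 3 lay between cells 7 and 8.

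Energy genes were found in both of the 2-fold counts. Of 71 genes of oxidative phosphorylation, 54, 56, 55, 53 and 57 were on, with 11 (15.5%) at least 2-fold higher in cells 7 and 8 and 15 (21.1%) lower, beside 3.79% and 5.56% of all genes. Of 18 glycolytic genes 3 (16.7%) were higher and 4 (22.2%) lower, with Pfkp, the platelet form of phosphofructokinase, at 675, 21501, 29306, 79700.4 and 22786. Of 45 cytosolic ribosomal proteins, 5 (11.1%) were higher and 1 (2.22%) lower, with a median log2 difference of 0.32. Genes on in no cell numbered 10 of the 71, 4 of the 18 and 6 of the 45, against 13400 of all 18194. The shares of all genes are thus a low background for these lists, and a difference from other expressed genes was not tested.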
